A study of Mus musculus with 6 samples.

Results

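Enterocytes turn digested fat into chylomicrons, the lipoprotein particles that carry it into lymph, and 10 mouse genes of that route are described here. They were chosen by gene symbol in a table of 27179 genes, and all 10 were found: Apob, Mttp, Apoa1, Apoa4 and Apoc3 for the particle, Fabp1 and Fabp2 for fatty acid transport in the cytosol, and Mogat2, Dgat1 and Dgat2 for triglyceride synthesis. RNA was sequenced from wild-type (WT) intestinal organoids derived from small intestine, which are epithelial cultures grown in Matrigel with IntestiCult medium. One group of 3 libraries received the thyroid hormone T3 at 1e-07 M for 17 h, and the other group of 3 received vehicle for the same time. The labels name no age, sex or strain and do not say whether libraries came from separate cultures or animals. The spread behind each p-value is therefore that of these 6 libraries and could be technical in origin.

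Fatty acids and monoacylglycerol enter the enterocyte across the brush border, are ferried by fatty acid binding proteins to the endoplasmic reticulum and are rejoined there into triglyceride. The microsomal transfer protein loads this lipid onto apolipoprotein B, which stays with the particle for its whole life, and smaller apolipoproteins coat its surface. Thyroid hormone acts through nuclear receptors that bind DNA, and several apolipoprotein genes are known to respond to it in liver.

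Each column totalled 28197080 to 28611883 normalized reads with vehicle and 29510422 to 29974091 with T3, so every T3 total was the higher. The authors had scaled these values between libraries and rounded them. The pattern of low values puts the original depth at an estimated 26100000 to 31100000 reads on genes. The 10 genes together took 0.198% to 0.216% of a vehicle library and 0.225% to 0.245% of a T3 library. Klf9, a gene directly induced by T3 in many tissues, stood at 352 ± 20.3 with vehicle and 2144 ± 60.8 with T3 (SD, n = 3), and Dio1, a deiodinase, at 216.7 ± 6.81 and 702 ± 98.6. Hr, also known to be induced by T3 in other tissues, went the other way, from 295.7 ± 29.6 to 190.7 ± 33.2 (limma, adjusted p = 0.00333). Enterocyte genes were abundant, and Sis, sucrase-isomaltase of the enterocyte brush border, averaged 15566 with vehicle. Genes listed for other tissues varied. The hepatocyte genes Fgb and Ahsg, the immune gene Ptprc and the endothelial gene Kdr were at 0 to 3 reads in every library. Others of those lists were above that level, with vehicle averages of 2013.7 for Ttr, 247 for Vim, 165.3 for Lyve1 and 97.3 for Itgam. Vehicle replicate 1 differed from the other vehicle libraries by exon length. Its median log2 deviation from them ran from -0.06 for genes with up to 1000 exon bases to 0.39 for the 100 tested genes with over 12000, and this touches Apob, whose exons span 13909 bases.

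Among the 10 genes 6 rose with T3, 1 fell and 3 did not pass the test (limma, Benjamini-Hochberg adjusted p under 0.05 over 13052 genes tested). The background was high: 24.0% of all tested genes were called higher, 20.8% lower and 44.8% in either direction. The higher share among all calls was 53.6% as deposited, and rescaling lowered it to 40.4% (upper quartile) or 38.7% (column totals made equal). The median log2 fold change of the 10 genes was 0.20, against -0.01 over all genes tested. The 2 groups of libraries did not overlap for 4 of the 10 genes (Apoa1, Mttp, Fabp2 and Dgat1), against 54.9% of all tested genes. All 10 passed the filter on low values in both groups, since the lowest value of any of them in any library was 232.

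**Figure D1:**
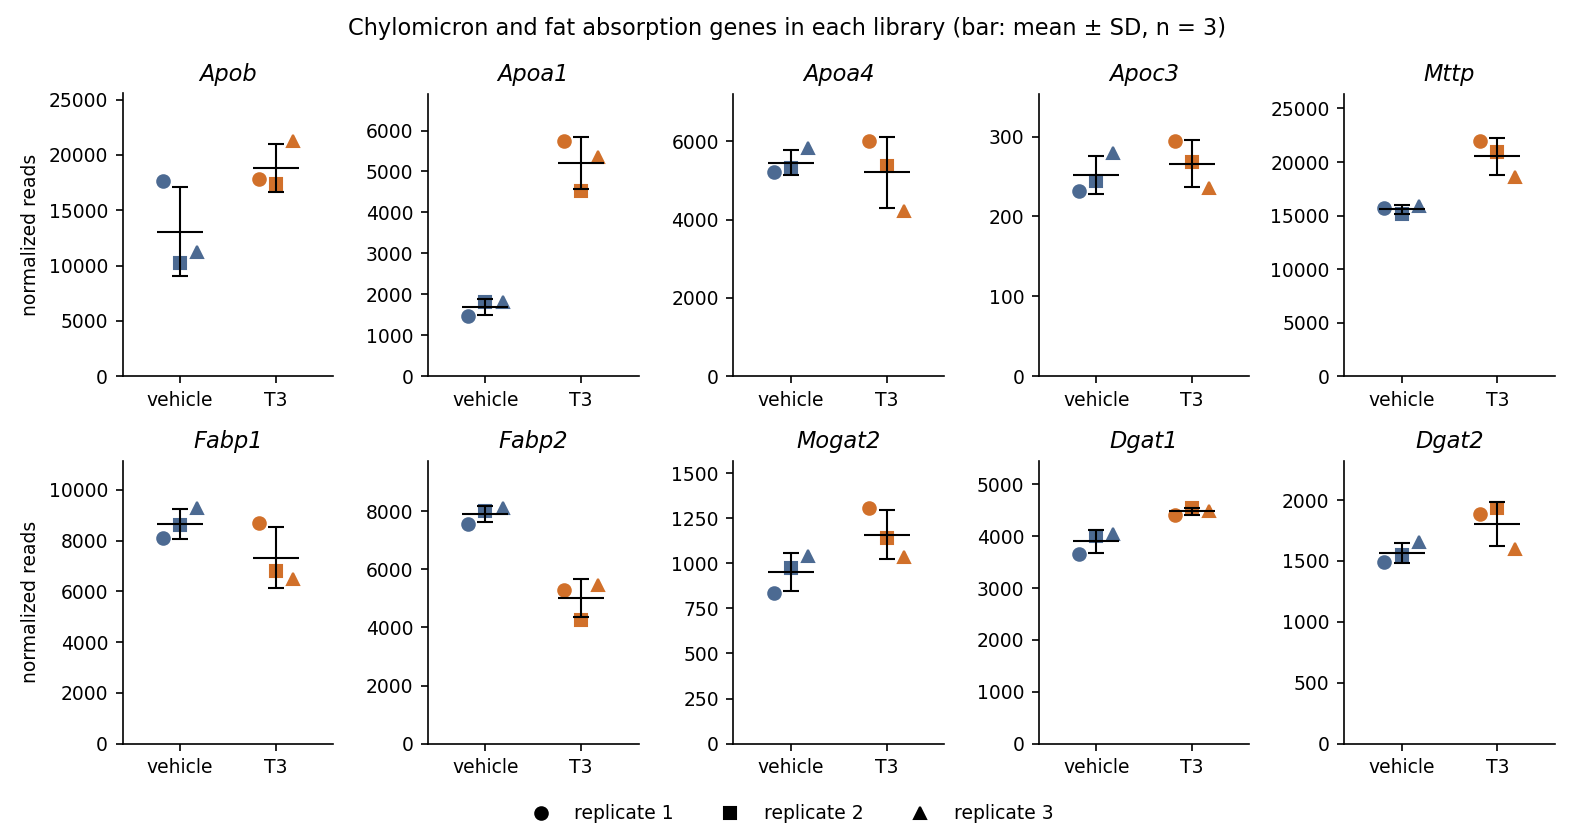
Normalized reads of each gene in each library, with vehicle in blue and T3 in orange, the replicate number as the symbol, and the black bar as mean ± SD (n = 3). Apoa1, Mttp and Dgat1 are higher in every T3 library than in any vehicle library, Fabp2 is lower, and vehicle replicate 1 is the high vehicle point for Apob.

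Apob encodes the protein that wraps the whole particle (gene ID 238055, GRCm38 chromosome 12, 7977677 to 8016839, 29 exons). It stood at 17679, 10262 and 11252 normalized reads in vehicle replicates 1 to 3 and at 17785, 17369 and 21290 in T3 replicates 1 to 3. The groups overlapped, because vehicle replicate 1 lay above T3 replicate 2. Apob was called higher by 1.48-fold (log2 0.56 ± 0.17 SE, adjusted p = 0.0235), with a 95% interval of 1.13-fold to 1.93-fold. The authors' deposited table gives a log2 fold change of 0.53 ± 0.22 with an adjusted p of 0.129 for the same gene, which is past no threshold used here.

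The call for Apob rested on which libraries were used. Without vehicle replicate 1 the log2 fold change was 0.80 (adjusted p = 7.53e-05), and after removal of a trend on exon length it was 0.62 (adjusted p = 0.000419). It was lost without vehicle replicate 2 (adjusted p = 0.0797), vehicle replicate 3 (0.1002), T3 replicate 1 (0.05185) or T3 replicate 3 (0.0644), with no filter on low values (0.058), with a robust variance model (0.141) and with variances not tied to the mean (0.0918). Of the 100 long genes, 85 had vehicle replicate 1 as the highest vehicle library, and 10 deviated more in it than Apob did (log2 0.72 against the other vehicle libraries). T3 replicate 3 was highest for Apob among the T3 libraries by 0.28, beside a median of 0.10 for genes of that length class. Whether exon length accounts for the spread in Apob was not tested beyond these values. By the rule for likeness, the genes with the most similar levels over the 6 libraries were Rnf213 (Pearson r = 0.997, 16939 exon bases), Arap2 (r = 0.993, 7363 bases) and Baz2b (r = 0.992, 7980 bases), among 6211 genes compared. These are descriptions over 6 libraries, which the genes share along with the treatment.

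**Figure D2:**
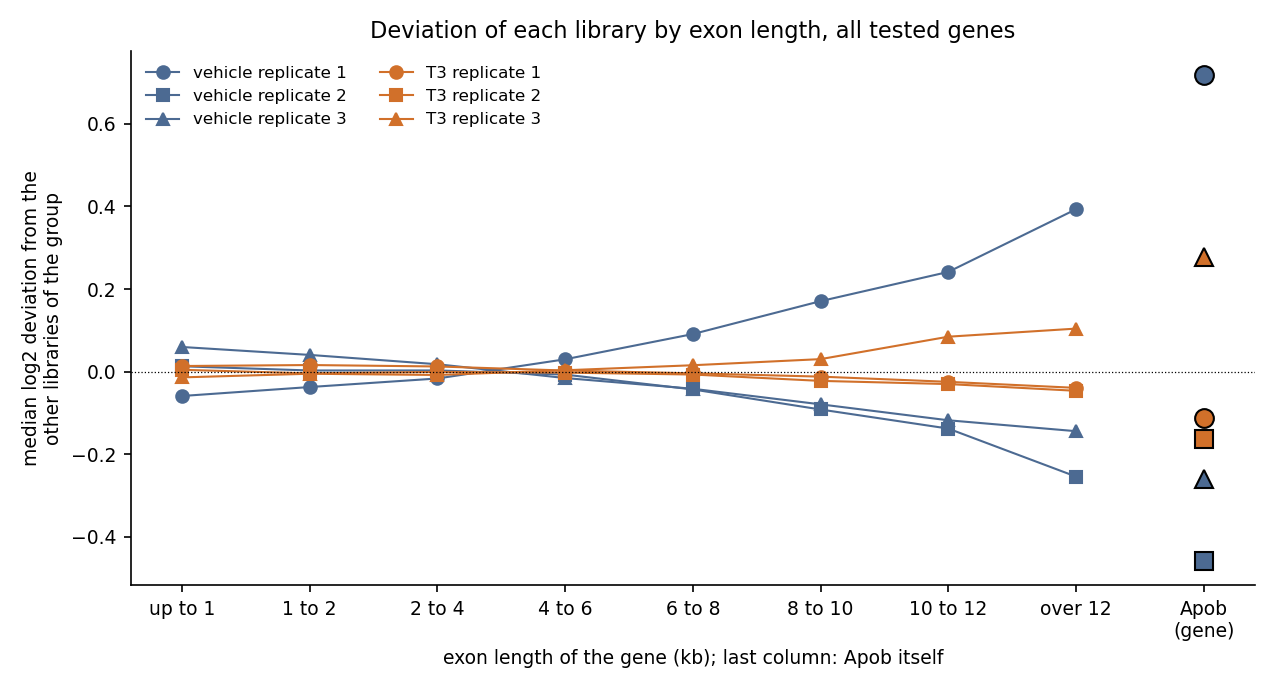
Median log2 deviation of each library from the other libraries of its group, over all tested genes grouped by exon length in kilobases, with Apob itself in the last column. Vehicle replicate 1 climbs to 0.39 in the longest class, and its Apob value lies at 0.72.

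Mttp, the large subunit of the microsomal transfer protein that lipidates apolipoprotein B (gene ID 17777, chromosome 3, 138089855 to 138143388, 21 exons), rose without any overlap. Its vehicle libraries held 15660, 15149 and 15890 normalized reads, a narrow range, and its T3 libraries 21998, 20981 and 18579. T3 replicate 3 was the lowest of its group and still lay above each vehicle library. The rise was 1.32-fold (log2 0.40 ± 0.06 SE, adjusted p = 0.000567) and was called under all 19 alternatives, where the log2 fold change ran from 0.33 to 0.47. Its partner in the complex, P4hb, protein disulfide isomerase, went from 39872 ± 1215 to 45980 ± 4019, 1.15-fold higher (adjusted p = 0.0312). That call was lost without vehicle replicate 1 (0.0892), vehicle replicate 2 (0.0746), T3 replicate 1 (0.123) or T3 replicate 2 (0.12), and with upper-quartile scaling (0.103).

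The surface apolipoproteins parted. Apoa1, the main protein of high density lipoprotein and also a coat protein of new chylomicrons (gene ID 11806, chromosome 9, 46228630 to 46230466, 4 exons), had 1462, 1807 and 1800 normalized reads in the vehicle libraries and 5754, 4521 and 5365 in the T3 libraries. The lowest T3 library was far above the highest vehicle library. Its 3.08-fold rise (log2 1.62 ± 0.10 SE, adjusted p = 1.37e-06) was the largest change among the 10 genes and was called under all 19 alternatives. Apoa4, a lipid-responsive apolipoprotein of the gut (gene ID 11808, 46240844 to 46243458, 3 exons), held 5223, 5314 and 5826 with vehicle and 6019, 5371 and 4226 with T3. T3 replicate 1 was its highest library and T3 replicate 3 its lowest, so the groups overlapped, and the fitted fold was 0.945 with a 95% interval of 0.7996 to 1.118 (adjusted p = 0.572). Apoc3, which slows clearance of triglyceride-rich particles (gene ID 11814, 46233051 to 46235297, 4 exons), held 232, 245 and 279 with vehicle and 295, 268 and 236 with T3, with a fold of 1.06 and an interval of 0.8913 to 1.25 (adjusted p = 0.591). Neither interval reached the rise seen for Apoa1.

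These apolipoprotein genes are neighbours. Apoa1 and Apoc3 point toward each other with 2.59 kb between their ends, and Apoc3 and Apoa4 start back to back 5.55 kb apart, so that all lie within 14.8 kb. Apoa5, 38.1 kb from Apoa1 on the far side of Apoa4, was listed at 0 in every library. Zpr1 and Bud13, farther along, had log2 fold changes of -0.04 and -0.10 and were not called. Sik3, a kinase gene that ends 4.44 kb before Apoa1, rose from 2307 to 2925 normalized reads on average (log2 0.34, adjusted p = 5.92e-05). An unnamed gene overlaps Apoa4 on the opposite strand, and averaged 11 and 6 normalized reads in the vehicle and T3 libraries, small beside Apoa4.

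**Figure D3:**
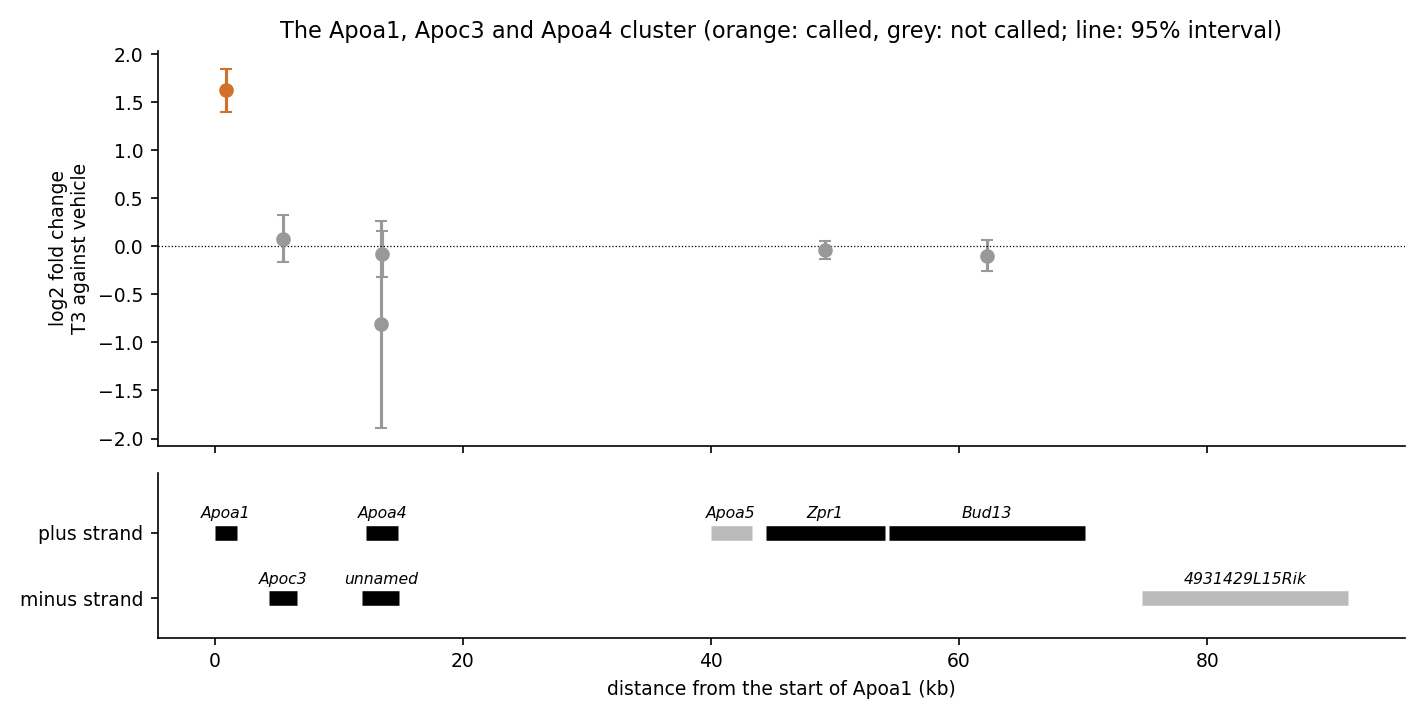
Log2 fold change with its 95% interval (top) and gene position and strand (bottom) against distance in kilobases from the start of Apoa1, with untested genes in light grey and Sik3, to the left, not drawn. Apoa1 is the 1 called gene drawn, at 1.62, while Apoc3 and Apoa4 straddle 0.

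The stretches before the starts of Apoa1 and Apoa4 are shown because the genes sit side by side and differed in response, and that of Fabp1 because it held most of the motif matches. Each is the 250 bases before the RefSeq start on GRCm38.p6, read 5′ to 3′ on the gene's strand, at chr9:46228380-46228629 (plus), chr9:46240594-46240843 (plus) and chr6:71199629-71199878 (plus). Capitals mark matches to any motif searched on both strands.
Apoa1: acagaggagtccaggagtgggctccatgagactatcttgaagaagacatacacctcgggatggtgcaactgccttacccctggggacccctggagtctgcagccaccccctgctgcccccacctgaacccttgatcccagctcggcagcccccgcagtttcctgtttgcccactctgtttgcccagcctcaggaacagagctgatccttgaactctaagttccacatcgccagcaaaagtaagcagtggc
Apoa4: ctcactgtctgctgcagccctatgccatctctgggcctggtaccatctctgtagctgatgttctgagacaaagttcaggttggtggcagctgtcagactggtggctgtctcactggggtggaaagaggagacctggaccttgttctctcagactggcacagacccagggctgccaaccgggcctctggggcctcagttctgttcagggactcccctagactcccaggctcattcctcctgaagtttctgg
Fabp1: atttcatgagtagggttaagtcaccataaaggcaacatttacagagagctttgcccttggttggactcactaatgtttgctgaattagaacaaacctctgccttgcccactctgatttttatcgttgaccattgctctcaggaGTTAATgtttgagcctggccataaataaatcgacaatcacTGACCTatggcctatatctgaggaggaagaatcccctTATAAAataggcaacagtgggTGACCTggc
The motifs were the nuclear receptor motif AGGTCA, its direct repeats with a spacer of 4 or of 1 bases, which contain that motif, GTTAAT from the HNF1 site, and the TATA box TATAAA. RefSeq's table held such a stretch for 6 of the 10 genes (Apob, Apoa1, Apoa4, Mttp, Fabp1 and Fabp2), but not for Apoc3, Dgat1, Dgat2 or Mogat2. AGGTCA was found in 1 of these 6, Fabp1, on the minus strand at -67 to -62 and again at -9 to -4, counting back from the base before the start as -1. Among 32851 promoter stretches of the same length 14.0% held it. GTTAAT was in Fabp1 as well (-107 to -102), against 6.43% of all stretches, and TATAAA was in Fabp1 (-30 to -25) and Apob (-60 to -55), against 12.4%. Neither direct repeat matched in any of the 6, and they are rare, in 0.015% and 0.033% of stretches. The RefSeq start lies 320 bases from the start in the deposited table for Fabp2, 30 for Mttp and 9 for Fabp1. Those stretches therefore do not abut the deposited gene models.

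The cytosolic carriers of fatty acid were lower or not called. Fabp2, the intestinal fatty acid binding protein (gene ID 14079, chromosome 3, 122895392 to 122899506, 4 exons), held 7566, 8011 and 8100 normalized reads with vehicle and 5295, 4248 and 5460 with T3. Every T3 library lay below every vehicle library. The fall was 1.59-fold (log2 -0.67 ± 0.08 SE, adjusted p = 0.000158), the only fall called among the 10 genes, and it was called under all 19 alternatives. An opposite-strand gene that spans it, 4933405D12Rik, averaged 1 and 1.67 reads.

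Fabp1, the liver-type binding protein that also moves lipid toward chylomicron precursors (gene ID 14080, chromosome 6, 71199888 to 71205023, 4 exons), held 8100, 8634 and 9283 with vehicle and 8711, 6794 and 6476 with T3. T3 replicate 1 lay inside the vehicle range and the other T3 libraries below it. Fabp1 was not called (log2 -0.25 ± 0.10 SE, adjusted p = 0.0627), and the interval ran from 0.719 to 0.979 on the fold scale. It was called lower without T3 replicate 1 (adjusted p = 0.00214) or vehicle replicate 1 (0.0478), with upper-quartile scaling (0.0257), with equal column totals (0.0196) and after removal of the exon length trend (0.0316). The ratio of Fabp2 to Fabp1 within a library does not depend on scaling. It was 0.934, 0.928 and 0.873 with vehicle and 0.608, 0.625 and 0.843 with T3, with no overlap between groups (exact permutation test, two-sided p = 0.1, the smallest that 3 against 3 allows, and 0.3 after adjustment over 6 ratios).

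The enzymes that rebuild triglyceride had small rises. Dgat1, an acyltransferase that adds the last fatty acid (gene ID 13350, chromosome 15, 76502015 to 76511818, 17 exons), held 3649, 4003 and 4039 normalized reads with vehicle and 4405, 4540 and 4489 with T3. Its groups did not overlap, and it rose 1.15-fold (log2 0.20 ± 0.05 SE, adjusted p = 0.00564) and stayed called under all 19 alternatives. Dgat2, an unrelated enzyme for the same step (gene ID 67800, chromosome 7, 99153663 to 99182713, 8 exons), held 1495, 1545 and 1659 with vehicle and 1882, 1934 and 1600 with T3. T3 replicate 3 fell inside the vehicle range. Dgat2 was also 1.15-fold higher, close to the threshold (adjusted p = 0.0483). The ratio of Dgat2 to Dgat1 was 0.410, 0.386 and 0.411 with vehicle and 0.427, 0.426 and 0.356 with T3 (exact permutation test, two-sided p = 1). Because its log2 difference moved between -0.04 and 0.09 as single libraries were left out, no order of response between these enzymes could be read.

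Mogat2, which makes diacylglycerol from absorbed monoacylglycerol (gene ID 233549, chromosome 7, 99219084 to 99238611, 6 exons), held 836, 976 and 1041 with vehicle and 1306, 1139 and 1033 with T3. T3 replicate 3 overlapped with the vehicle libraries. The rise was 1.22-fold (log2 0.28 ± 0.10 SE, adjusted p = 0.0394). The calls of Dgat2 and Mogat2 were lost under 10 and 11 of 19 alternatives, among them those without vehicle replicate 1 (adjusted p = 0.119 and 0.112), vehicle replicate 2 (0.114 and 0.0642), T3 replicate 1 (0.164 and 0.155) or T3 replicate 2 (0.163 and 0.074), and with upper-quartile scaling (0.137 and 0.0836). Mogat2 and Dgat2 are relatives that lie 36.4 kb apart on the same strand.

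**Figure D4:**
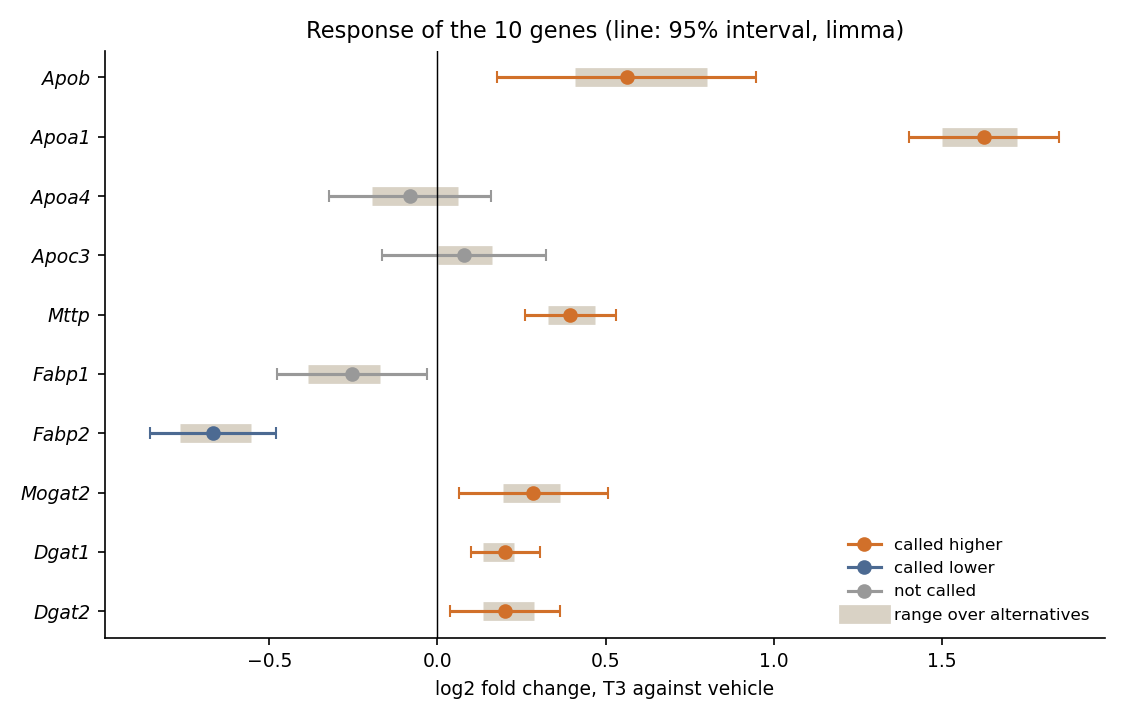
Log2 fold change of each of the 10 genes for T3 against vehicle (limma), with the 95% interval as a thin line and the range over 19 alternative settings as a broad band. Apoa1 lies at 1.62 and Fabp2 at -0.67, and the bands of Apoa4 alone cross 0.

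Levels per kilobase of exon can be compared between genes, with the limit that vehicle replicate 1 deviated by exon length. With vehicle the order ran from Fabp1 (17627 ± 1204 normalized reads per kb) and Fabp2 (12236 ± 444) through Mttp (3530 ± 86.0), Apoa4 (3274 ± 195), Dgat1 (2221 ± 123), Apoa1 (1715 ± 200), Apob (939 ± 290), Dgat2 (696 ± 37.3) and Mogat2 (537 ± 59.1) to Apoc3 (481 ± 46.3). Mttp overlapped with Apoa4 there, and Mogat2 with Apoc3, while other neighbours in the order were separate. Apob and Dgat2 were barely so, at 737.8 per kb in the lowest Apob library and 737.0 in the highest Dgat2 library. With T3 Apoa1 moved from rank 6 to rank 3 (5293 ± 640 per kb), where it overlapped with Mttp (4653 ± 398). The carriers Fabp1 (14892 ± 2458) and Fabp2 (7753 ± 1019) still led, and Apoc3 (508 ± 56.4) remained last.

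Within groups Apob stood apart from most of the other genes. In vehicle replicate 1, 8 of them had their lowest vehicle value while Apob had its highest, and in T3 replicate 3, 6 had their lowest T3 value while Apob again had its highest, as did 1 other gene. The deviations from group means correlated at r = 0.967 between Apoa4 and Mttp, 0.942 between Apoc3 and Mogat2 and -0.872 between Apob and Dgat1, over 6 libraries, a description only since all genes share the libraries and the exon length trend. The ratio of Apoa1 to Apob rose in every T3 library above every vehicle library, from 0.0827, 0.176 and 0.160 to 0.324, 0.260 and 0.252 (exact permutation test, two-sided p = 0.1, and 0.3 adjusted over 6 ratios). The ratios of Apoa4, Apoc3 and Mttp to Apob overlapped between groups (exact permutation p = 0.3, 0.3 and 0.5, adjusted 0.45, 0.45 and 0.6).

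Around these genes, 76 other genes of fat handling were listed by step, of which 71 were tested. In all 41 of the 71 rose and 11 fell, 57.7% and 15.5%, against the background of 24.0% and 20.8%, with a median log2 fold change of 0.18. Genes named here are up to 4 per step with the smallest p-value among those called. Those added for their role are A1cf, Cd36, Scarb1, Slc27a4, P4hb, Lpin3, Soat2, Creb3l3, Mlxipl and Nr1h3, and they were picked after their values were seen, as were the genes named for being at or near 0.

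For assembly and export from the endoplasmic reticulum, 10 of 14 tested genes were called higher and 0 lower (limma, adjusted p under 0.05). At an unadjusted p under 0.05 also 0 were lower. The background was 24.0% higher and 20.8% lower. The 4 others were not called, among them A1cf with a log2 fold change of -0.08, and the called rises went down to log2 0.12. Apobec1, the enzyme that edits Apob mRNA in the gut to give the short intestinal form of the protein, stood at 137, 146 and 108 normalized reads with vehicle and 896, 830 and 884 with T3. That was a rise of 6.68-fold (log2 2.74 ± 0.11 SE, adjusted p = 9.67e-08). Its cofactor A1cf was at 1552 ± 143 and 1468 ± 51.1 and was not called. Tm6sf2, which promotes lipid loading of apolipoprotein B particles, rose 1.86-fold from 1625 ± 141 to 3028 ± 246. Pla2g12b, a secretory pathway protein needed for such particles, rose 1.51-fold, and Sec23a, a subunit of the COPII coat that carries cargo out of the endoplasmic reticulum, 1.32-fold. Vamp7 was listed at 0 in every library, but its deposited position is on a separate contig and not on a chromosome. Whether reads could be assigned to it there was not tested.

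Uptake genes went both ways, with 5 of 10 higher and 4 lower. Npc1l1, the brush border cholesterol importer, rose 1.68-fold from 5188 ± 330 to 8735 ± 711, and the acyl-CoA synthetases Acsl1 and Acsl5, which activate fatty acids, rose 1.52-fold and 1.37-fold. Slc27a4, a fatty acid transport protein of the enterocyte, rose 1.20-fold. Slc27a2 of the same family fell 1.37-fold and Scarb1, a lipoprotein and lipid receptor, 1.21-fold. Cd36, the fatty acid translocase, was near silent in these organoids, at 32, 25 and 26 reads with vehicle and 5, 11 and 12 with T3, a fall of 2.91-fold (adjusted p = 0.00439).

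Of 12 tested acyltransferases and phosphatases beside the 3 described above, 7 rose and 3 fell. Agpat2, which makes phosphatidic acid, rose 1.58-fold, Agpat3 1.18-fold, Lpin3, a phosphatidate phosphatase, 1.4-fold and Soat2, the cholesterol esterifying enzyme of enterocytes, 1.35-fold. Lpcat3, which supplies unsaturated phospholipid to membranes and particles, fell 1.29-fold and Soat1 1.22-fold. Mogat1 had 1 read in a single vehicle library and 0 elsewhere, so Mogat2 was the form detected. For lipid droplet genes 7 of 12 rose and 1 fell. Pnpla2, the lipase that opens triglyceride hydrolysis, rose 1.72-fold from 1573 ± 91.4 to 2697 ± 87.8, Cideb, which joins droplets and lipoproteins, 1.53-fold, the lysosomal lipase Lipa 1.45-fold and the droplet coat gene Plin2 1.26-fold.

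Of 6 other apolipoprotein genes tested, Apoc2, the activator of lipoprotein lipase, was the 1 called. It held 484, 514 and 623 with vehicle and 958, 701 and 736 with T3, 1.47-fold higher (adjusted p = 0.00553). Apoa5 and Apoc1 were at 0 in every library. Among 17 transcription factors known to act on fat absorption genes 11 rose and 3 fell. Ppard, a receptor for fatty acids, rose 10.9-fold from 1003 ± 35.0 to 10936 ± 414 and Ppargc1a, a coactivator, 5.19-fold. Smaller rises were those of Mlxipl, a carbohydrate-responsive factor (1.70-fold), Hnf4g, a nuclear receptor of the enterocyte (1.53-fold), and Cdx2, an intestinal identity factor (1.38-fold). Creb3l3, a factor known to act on apolipoprotein genes including Apoa4, fell 1.5-fold from 784 ± 76.7 to 524 ± 70.5, and Nr1h3, the liver X receptor alpha, 1.41-fold.

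**Figure D5:**
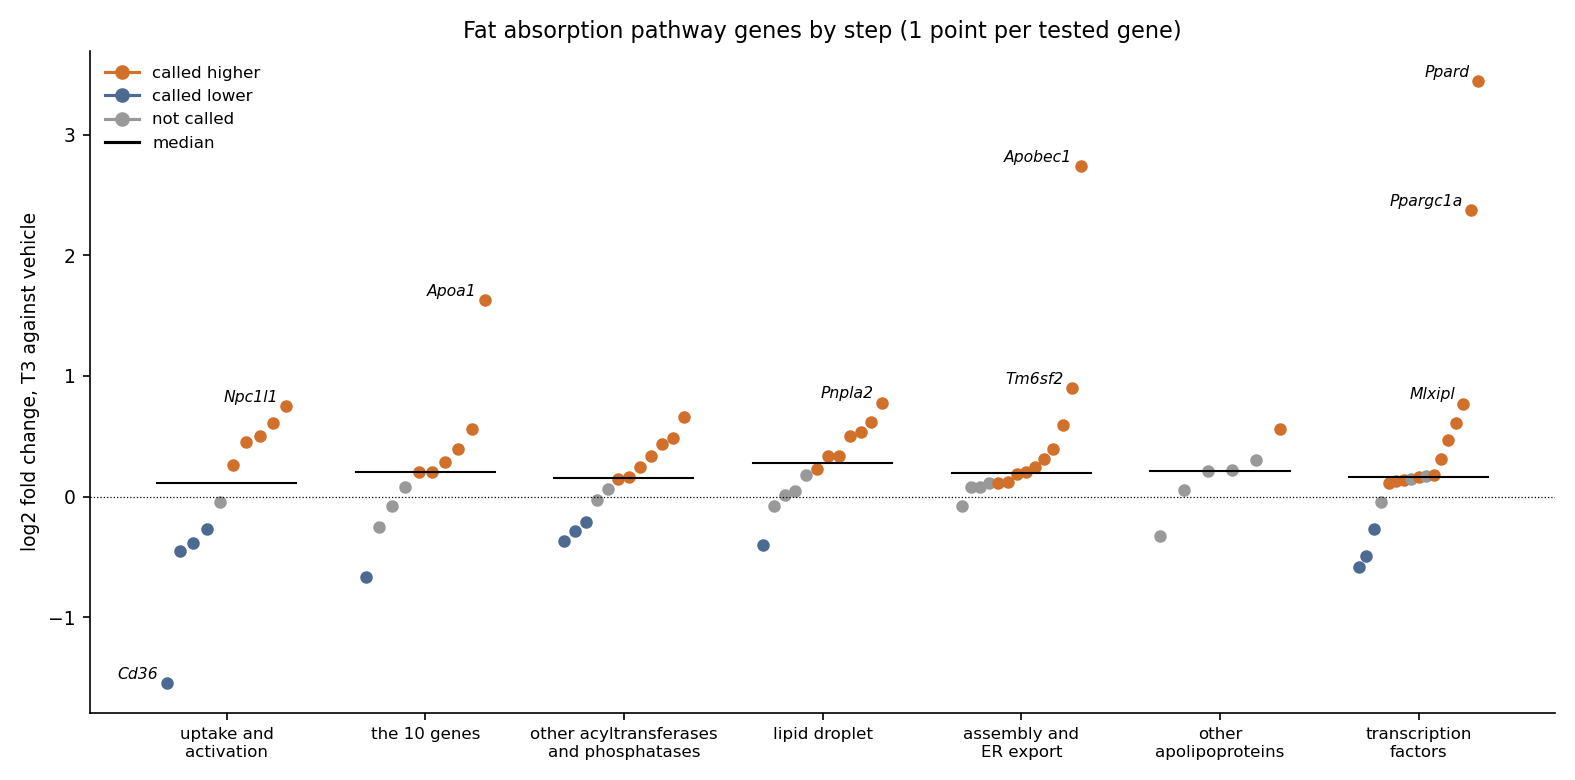
Log2 fold change for T3 against vehicle of every tested gene in the 10 genes and 6 lists of fat handling, with orange called higher, blue called lower, grey not called and the black line as list median. The assembly list has no blue point, and Ppard at 3.44 and Apobec1 at 2.74 are the highest of their lists.

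Markers of cell type moved with T3 beside these genes, over a background of 24.0% of all tested genes called higher and 20.8% lower. Of 15 brush border markers 10 rose and 1 fell, and their summed level went from 108687 to 111292 normalized reads over the vehicle libraries to 178386 to 194087 over the T3 libraries. Sis rose 2.42-fold, Lct, lactase, 3.06-fold and Slc2a2, a sugar transporter, 4.40-fold. Of 8 crypt stem cell markers 7 fell and none rose (limma; 0 rose also at an unadjusted p under 0.05), with sums of 100584 to 116262 and 69637 to 78338, and Olfm4 fell 5.19-fold and Lgr5 2.19-fold. Markers of the ileum, the last part of the small intestine, rose in 4 of 5 cases from low levels, with sums of 130 to 218 and 592 to 1003, among them the bile acid transporters Slc10a2 (5.39-fold) and Slc51a (5.93-fold). Of 7 villus tip markers 1 rose and 3 fell, with sums of 3355 to 3445 and 2717 to 3066. Of 5 duodenal and jejunal markers 3 rose, with sums of 11827 to 13653 and 21310 to 29823. Most of that difference was Adh6a, which averaged 278 with vehicle and 11973 with T3. Gata4 rose 1.12-fold and Slc40a1 2.23-fold, and Cybrd1 and Onecut2 were not called. Of 11 Paneth, goblet, enteroendocrine and tuft cell markers 1 rose and 3 fell (9.09% and 27.3%), with sums of 46852 to 55697 and 39758 to 55942. In the libraries with the higher brush border sum, 6 of the 10 genes were called higher and Fabp2 lower. Apoa4, Apoc3 and Fabp1 were not called. In bulk RNA a change in the number of cells of a type and a change in RNA per cell cannot be told apart, and the part of cell type in the changes of the 10 genes was not tested. Among lists of other tissues, 7 fibroblast and smooth muscle genes summed to 309 to 388 with vehicle and 255 to 327 with T3, most of it Vim, and 0 of 2 tested were called (limma; 0 also at an unadjusted p under 0.05). The 5 endothelial and lymphatic genes summed to 228 to 237 and 156 to 216. Of these, Cdh5 and Kdr were at 0, and Lyve1, a lymphatic marker, fell from 165.3 ± 4.93 to 129 ± 23.3 (adjusted p = 0.0478). Among immune markers Itgam, an integrin subunit of myeloid cells, rose 3.59-fold, from 81, 100 and 111 reads with vehicle to 350, 341 and 356 with T3 (adjusted p = 2.2e-06). Cd68, a macrophage marker, was at 47 ± 4.0 and 49.3 ± 11.6 and was not called, while Ptprc, Cd3e and Itgax were at 0 to 3 in every library. The part of such cells in the changes of the 10 genes was not tested. The 6 hepatocyte markers summed to 1973 to 2115 and 574 to 710, nearly all of it Ttr, a thyroid hormone carrier that averaged 2013.7 and 602.7. Of 5 thyroid hormone reference genes 2 rose (Klf9 6.08-fold and Dio1 3.21-fold) and 2 fell, Hr (log2 -0.64) and Thra, a thyroid hormone receptor (log2 -0.73, from 2581.7 to 1555 reads).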

How the data were processed

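Organoid RNA was sequenced from directional libraries, per the labels' protocols, in 3 libraries per group. STAR, Subread and DESeq2 are named without versions in the submitters' processing notes, and no source used here gives the strand setting of the counting step. Positions are on mm10 (GRCm38), per the file headers. The values deposited by the authors are gene read numbers that were normalized and then rounded, a score and not a count. Their mean column matched the mean of the 6 columns to within 0.833. The authors' deposited table also holds a log2 fold change with SE, a p-value and an adjusted p-value per gene, and exon length and positions under other headings.

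Since no raw counts were at hand, limma 3.58.1 in R 4.3.3 (statmod 1.5.0 for its robust version) was run on log2(value + 1) with a mean-variance trend, for genes with at least 10 in at least 3 libraries (13052 of 27179), with the call at an adjusted p under 0.05. Fold changes on this scale understate changes of low genes. The fit was tested on simulated data first. Depth was estimated from gaps and doublings among low values. Within-library ratios were tested by exact permutation in Python 3.11.15 with 3 against 3 libraries. Promoter stretches came from RefSeq on GRCm38.p6.

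The 10 genes and the 18 gene lists were chosen with earlier results of these data known. The summed level of the immune list is not reported here, and genes of it are given singly. Genes are named by a rule: all 10, up to 4 called genes with the smallest p-value per list of fat handling (else the 2 highest), the 3 genes with a mean of at least 1000 most like Apob by Pearson's r, the thyroid reference genes Klf9 and Dio1, and called marker genes. Genes named outside it, among them those at or near 0, neighbours on the chromosome and those added for their role, were chosen after their values were seen. Gpat3 was matched by gene ID through RefSeq, and all 76 listed genes of fat handling were found. Alternatives were 17 planned (scalings, filters, pseudocounts, variance models, threshold, replicate block, each library left out) and 2 chosen after seeing the data (exon length trend removed, and vehicle replicate 1 with T3 replicate 3 left out).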

Additional observations from a re-analysis of the deposited data

How the results depend on the processing

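The 21 genes of fat handling named by the rule, and Apoa1, Mttp, Fabp2 and Dgat1, kept direction and call under all 19 alternatives, and 17 of 18 further genes put through the alternatives kept both in each that tested them (18 for Cd36). The exception, P4hb, lost its call in 10. Other genes named were not put through them. Of the 10 genes, 6 were called higher as reported, but 3 with no filter on low values, 3 with limma without a trend, 3 at an adjusted p under 0.01, and 3 to 5 as single libraries were left out. With upper-quartile scaling or equal column totals, 4 were called higher. The 1 called lower became 2, with Fabp1 added, under upper-quartile scaling, equal column totals and removal of the exon length trend, and 1 to 2 as single libraries were left out. The 41 higher and 11 lower genes of fat handling ranged from 31 to 42 and from 10 to 12. Apoa4, never called, had a log2 fold change of 0.062 without T3 replicate 3 and 0.031 without it and vehicle replicate 1, and its extremes without single libraries were -0.19 and 0.062. The log2 difference of the Dgat2 to Dgat1 ratio, -0.00067 as reported, ran from -0.045 to 0.086 without single libraries. For Apoa4 and that ratio the cause was not tested. With the replicate number as a block, 4 of the 10 genes were higher and 1 lower, and 34 and 10 genes of fat handling. The labels give no pairing, and same-numbered libraries did not deviate together (r = -0.07, 0.03 and -0.06). No vehicle library correlated best with the T3 library of its own number. Of the T3 libraries, only replicate 2 correlated best with the vehicle library of its own number. The edgeR quasi-likelihood test was planned for raw counts and was not run on normalized values. Genes as low as Cd36, which the filter at 50 removed, are limited by depth.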
